A study of Mus musculus with 12 samples.

Results

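Livers that expressed the Z form of human alpha1-antitrypsin (Z on) were compared with livers that expressed the wild-type M form (M on). The comparison used every array titled for an expressing juvenile Z or M mouse, which gave 6 of the 12 arrays of the series, 3 in each group. Each array was hybridised with liver RNA of a male mouse aged 6 weeks, and the series describes the 3 arrays of a group as biological replicates. Both groups carried an inducible human transgene active only in hepatocytes, and neither received doxycycline, so the transgene was on. The other 6 arrays came from the same lines with the transgene held off (Z off and M off, 3 each). Those mice drank water with doxycycline at 40 µg/mL from conception onwards. All 4 groups therefore carried a transgene, and no group without one was included. Every Z mouse came from a Z line and every M mouse from an M line, so the protein form and the line cannot be told apart from the on arrays alone.

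Alpha1-antitrypsin is a protease inhibitor of the serpin family that hepatocytes secrete in large amounts. The Z form folds poorly and polymerises in the endoplasmic reticulum of the hepatocyte, from which it is cleared by ER-associated degradation and autophagy, and in people it is a cause of liver disease. Cells that hold misfolded protein can raise chaperones through the unfolded protein response, and the integrated stress response acts through the transcription factors ATF4 and CHOP. The comparison asked how livers with the misfolding form differ from livers with a form that folds and leaves the cell.

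The signals were linear intensities, and 22626 probe sets were tested after 64 control probe sets of the array had been left out. A probe set is a group of probes for a transcript, and a gene can have several. Levels are given in signal units and differences as log2 of Z on over M on. Array medians lay between 38.8 and 44.1 on the 6 arrays, and 7009 probe sets had a mean signal of at least 100 over them. Over those 7009, log2 signals correlated at 0.95 to 0.96 within each on group and at 0.94 to 0.96 between a Z on and an M on array. With 3 animals in a group, the number of arrays sets the precision. In whole liver, fewer cells of a type and less RNA per cell cannot be told apart. The markers of hepatocytes were near the top of the scale in both groups, with summed signals of 9 markers from 117790 to 142085 in Z on and from 110214 to 170654 in M on.

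An array of the Z on group stood apart from the other Z on arrays. The acute phase genes Saa1, Saa2 and Lcn2, singled out after their values were seen, read 6737.2, 4508.4 and 761.2 on Z on replicate 3. On the other Z on arrays Saa1 read 532 and 441.9, Saa2 read 100.4 and 91.5, and Lcn2 read 13.7 and 4.1. Dbp, a transcription factor driven by the circadian clock, read 80.1 on that array against 1365 and 1385.3 on the other Z on arrays and 1094 to 1555.9 on the M on arrays. Nfil3, a repressor that runs opposite to Dbp in the clock, read 278.7 there against 113.1 and 114.1. Many, though not all, of the differences that this array moved by over 1.5 times are given with and without it. Of the 3 control probe sets for 18S ribosomal RNA, those of the 3' and 5' ends did not overlap between the groups and the middle one did, at 185 to 458.7 in Z on and 51.1 to 330 in M on. The 18S control of the 3' end read 914.2, 1491.7 and 1483.6 on the Z on arrays and 767.5, 226.6 and 331.8 on the M on arrays. The ratio of 3' to 5' signal of beta-actin, a measure of RNA integrity, was 5.16, 2.44 and 3.90 in Z on and 3.09, 3.78 and 4.38 in M on. The part of these control signals in the differences below was not tested.

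Few probe sets passed between Z on and M on when all 22626 were adjusted together. In limma, 2 passed at an adjusted p under 0.05 (0.00884% of those tested), both lower in Z on, and none was higher. Of these, 1 was among the 7009 brighter probe sets (0.0143%). The smallest adjusted p among higher probe sets was 0.0618. At an unadjusted p under 0.05 there were 1550 (6.85%), 781 higher (3.45%) and 769 lower (3.4%), and 454 of them were bright (6.48% of the bright). The arrays of the 2 groups did not overlap on 2737 probe sets (12.1%), 6.07% higher and 6.02% lower. In the brighter 7009 they did not overlap on 1080 (15.4%), 7.58% higher and 7.83% lower.

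Asic5, an ion channel of the acid-sensing family that bile acids activate, was the named gene among the 2 calls. It read 50, 48.1 and 56.4 on the Z on arrays and 300.8, 279.4 and 338.2 on the M on arrays. Every Z on array lay far below every M on array, and the log2 difference was -2.57 (SE 0.21, adjusted p = 0.00806). A gap in the same direction was present with the transgene off, on separate arrays. Asic5 read 36, 60 and 42.5 in Z off and 493.3, 521.7 and 422.2 in M off, a log2 difference of -3.40. The difference of the on and off differences was 0.83 and did not pass (adjusted p over all probe sets 0.933). The low signal thus went with the Z line in both states. The Asic5 call held in 18 of 21 alternative settings, with adjusted p-values from 2.06e-05 to 0.137. The other call, on a dim probe set, had no gene symbol in the annotation used. It read 3, 3.6 and 2.2 in Z on and 25.7, 28.5 and 17.5 in M on, without overlap (log2 difference -3.03, adjusted p = 0.0351). That call held in 7 of the 20 alternative settings that included the probe set. The Asic5 call was lost, with the count of calls at 0, without M on replicate 1.

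**Figure D1:**
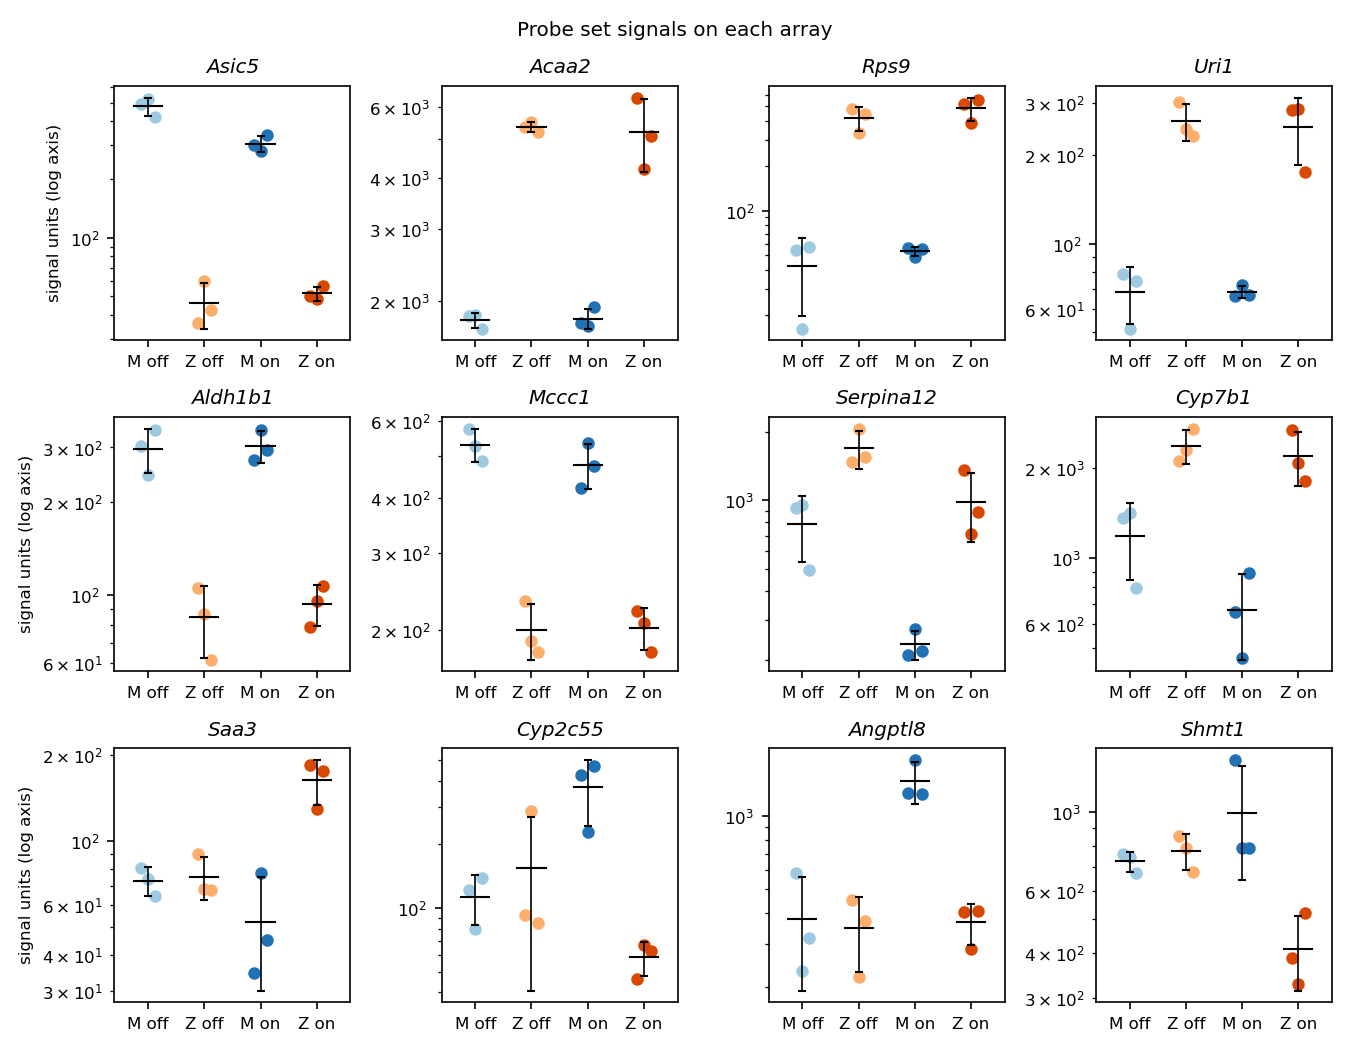
Signal of a passing probe set of each of 12 genes on the 12 arrays by group (dots, log axis in signal units). The mean and SD of each group are marked (n = 3). Asic5, Acaa2, Rps9, Uri1, Aldh1b1 and Mccc1 separate the Z from the M arrays in both states, while Saa3, Cyp2c55, Angptl8 and Shmt1 do so with the transgene on while their off arrays overlap.

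Adjustment over all probe sets includes many dim ones, and 28.4% of all values lay under 16. When the 7009 brighter probe sets were fitted and adjusted alone, 25 passed (0.357%), 15 higher in Z on (0.214%) and 10 lower (0.143%). These stood for 22 named genes, and 2 of the 25 probe sets had no single symbol. Of the 25, 10 had a mean under 100 in the lower group and so reached the level limit through the higher group. Of the 25 calls, 11 held under each of 12 omissions of an array (Asic5, Acaa2, Uri1, Nudt2, Rps9, Aldh1b1, Isoc2b, Mccc1, Serpina12, Echdc1 and a probe set without a single symbol), and 14 were lost under at least 1. Every omission kept the same 7009 probe sets, so the omissions do not test the level limit. Of the 11, Asic5, Uri1, Rps9, Aldh1b1, Isoc2b and the probe set without a single symbol had a mean under 100 in the lower group. The count of calls ranged from 13 without M on replicate 3 and 14 without Z on replicate 1 to 32 without Z off replicate 1. It was 23 without Z on replicate 3, when Angptl8, Plbd1, Glrx2, a second Cyp7b1 probe set and another without a single symbol no longer passed. Below, adjusted p-values of these genes are those of limma on the 7009 brighter probe sets. Over all probe sets, only Asic5 of the 25 passed. The adjusted p-values of the others then ran from 0.0618 for Acaa2 to 0.358 for a probe set without a single symbol.

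Z off and M off share no array with Z on and M on, so their signals show which of these differences were also read without expression. The Z off arrays were lowest on average for the 3 controls for 18S ribosomal RNA. They were also lowest for spiked-in controls such as DapX-3, with a mean of 464 against 1083 to 1273 in the other groups. The part of this in the off differences was not tested. The fit estimated the spread of each probe set from the arrays of all groups together. The on and off calls are therefore not independent, and their overlap alone is no separate evidence. Among the same 7009 probe sets, 55 passed in Z off against M off (0.785%). That count was 24 without M off replicate 1, 30 without M off replicate 2, 28 without M off replicate 3 or Z off replicate 2, 31 without Z off replicate 3 and 105 without Z on replicate 3. In all, 10 of the 25 on calls (40%) were among these 55 (18.2% of the off calls), and all 10 had the same direction in both states. A further 7 had off arrays that did not overlap in the same direction without passing. The remaining 8 had off arrays that overlapped, where 22.6% of all brighter probe sets did not. Over all probe sets, 16 passed in Z off against M off (0.0707%), and 10 of those 16 had on arrays apart in the same direction.

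**Figure D2:**
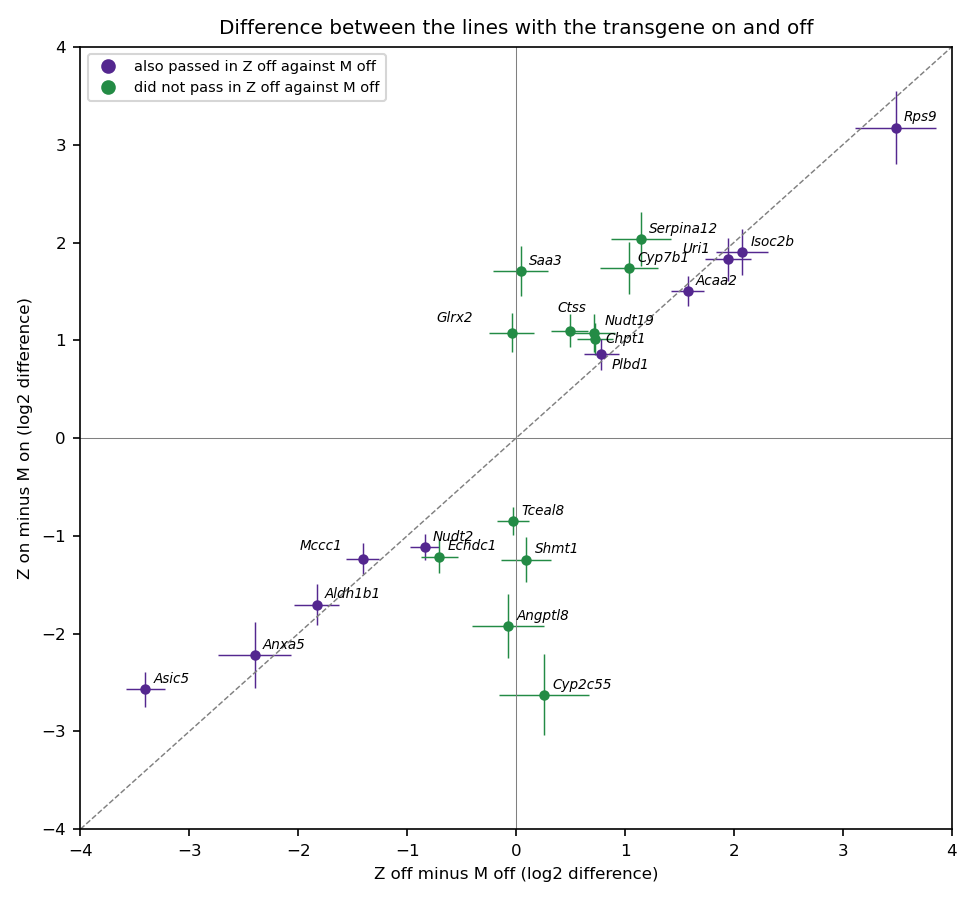
Log2 difference of Z on and M on (vertical) against that of Z off and M off (horizontal). Each of the 22 genes that passed with the transgene on among the brighter probe sets is shown by a passing probe set. Bars are standard errors and the dashed line marks equal differences. The 10 genes that also passed with the transgene off run along that line, from Asic5 (-3.40 off, -2.57 on) to Rps9 (3.48 off, 3.18 on), and Asic5 lies above it, whereas Saa3, Glrx2, Tceal8, Shmt1, Angptl8 and Cyp2c55 lie near 0 on the horizontal axis.

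Of the genes that passed in both states, Acaa2, Mccc1 and Aldh1b1 encode mitochondrial enzymes. Acaa2, the thiolase of the last step of mitochondrial fatty acid oxidation, read 6317.8, 4208.1 and 5096.9 in Z on and 1765.7, 1739.5 and 1928.8 in M on. The groups did not overlap and differed by 1.51 on the log2 scale (SE 0.15, adjusted p = 0.000695). The off difference was 1.58. Mccc1, a subunit of the carboxylase that breaks down leucine, read 221.4, 207.5 and 177.7 in Z on and 421.3, 533 and 472.5 in M on. All Z on arrays were lower (log2 difference -1.23, SE 0.16, adjusted p = 0.00227), and the off difference was -1.41. Aldh1b1, a mitochondrial aldehyde dehydrogenase, read 78.3, 95.2 and 106.6 in Z on and 272.5, 341.9 and 294.9 in M on. It was lower on all Z on arrays (-1.70, SE 0.21, adjusted p = 0.00206), with -1.83 in the off state.

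The other genes of this kind had varied functions. Rps9, a protein of the small ribosomal subunit, was higher by 3.18 on 1 probe set (adjusted p = 0.00189), where Z on arrays read 520.5, 388.5 and 551.6 and M on arrays 56.4, 48.8 and 54.9. Uri1, a prefoldin-like chaperone protein, read 285.5, 287.4 and 174.9 in Z on and 66.4, 72.2 and 67.1 in M on (log2 difference 1.83, adjusted p = 0.00189). Isoc2b, which holds an isochorismatase domain, was higher by 1.90 (adjusted p = 0.00222). Plbd1, a protein with a phospholipase B domain named here because it passed, was higher by 0.85 (adjusted p = 0.0412). Without Z on replicate 3, the adjusted p of Plbd1 was 0.136. Nudt2, which hydrolyses dinucleoside polyphosphates, was lower by a log2 difference of -1.12, with 134.1, 116.8 and 127.4 in Z on against 277.9, 266.2 and 275.4 in M on (adjusted p = 0.00189). Anxa5, a calcium-dependent phospholipid-binding protein, was lower (-2.22, adjusted p = 0.00947), with 35.8, 72.4 and 75.3 in Z on against 168.1, 348.7 and 336.6 in M on. Without M on replicate 3 the adjusted p of Anxa5 was 0.0654.

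For 3 of these genes, other probe sets did not show the difference. Acaa2 had 2 further bright probe sets with log2 differences of 0.07 and 0.18. Uri1 had 2 with -0.02 and -0.03, and their signals lay between 142.1 and 319.9 on average. Rps9 had a brighter probe set at -0.13, with mean signals of 1528 in Z on and 1660 in M on, and a dim probe set at -1.57. The calls for these 3 genes therefore describe single probe sets and not all transcripts of the gene. Of the 22 genes, 13 had only 1 probe set.

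**Figure D3:**
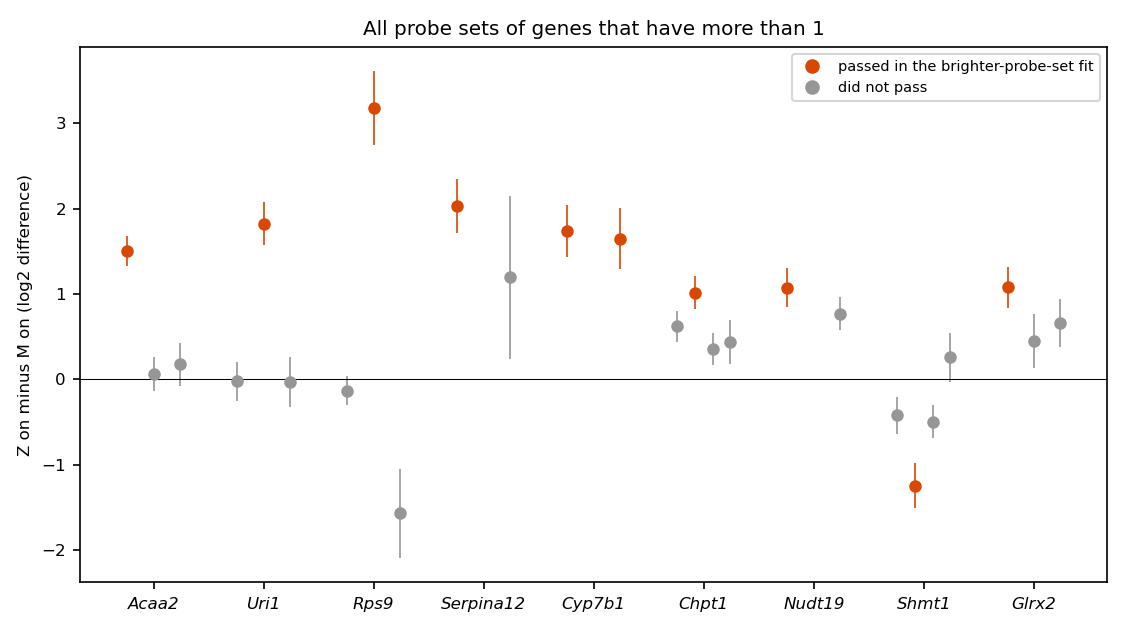
Log2 difference of Z on and M on, with its standard error over all 12 arrays, for each probe set of the 9 genes that have several (orange, passed among the brighter probe sets; grey, did not pass). In Acaa2, Uri1 and Rps9 the other probe sets lie at or below 0.18, in Cyp7b1 both passed, and in Chpt1 and Nudt19 all lie above 0.

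Several genes passed with the transgene on and read in the same direction with it off without passing there. Serpina12, a serpin also called vaspin and a relative of alpha1-antitrypsin, read 1351.7, 714.7 and 884.8 in Z on and 210.8, 272.2 and 217.4 in M on. The arrays did not overlap and differed by 2.03 (SE 0.28, adjusted p = 0.00454). In the off state it read 1477.3, 2063.9 and 1544.2 in Z off against 923.5, 955.7 and 494.8 in M off, a log2 difference of 1.14 (adjusted p = 0.072). Cyp7b1, the hydroxylase of oxysterols in the alternative pathway of bile acid synthesis, read 2697.5, 2076.8 and 1809.1 in Z on and 658.6, 463.7 and 894.7 in M on. All Z on arrays were higher, by 1.74 (SE 0.27, adjusted p = 0.00947), and its other probe set was higher by 1.65 (adjusted p = 0.0412). Without Z on replicate 1 the adjusted p of Cyp7b1 was 0.0581. The off difference of Cyp7b1 was 1.04 (adjusted p = 0.0882).

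Ctss, a lysosomal protease of antigen-presenting cells, read 360.2, 310.4 and 335.7 in Z on and 132.9, 209 and 137.7 in M on (log2 difference 1.10, adjusted p = 0.00947; off difference 0.49). The Kupffer cell and macrophage markers of the same arrays had 9 of 11 members higher and a median of 0.26 (0.16 without M on replicate 3). Their sums overlapped, from 2302.6 to 2556.1 in Z on and from 1934.2 to 2647.6 in M on. Between the off groups 8 of the 11 markers read higher, with a median of 0.21. Their part in the Ctss difference was not tested. Chpt1, the phosphotransferase of phosphatidylcholine synthesis, was higher by 1.02 (adjusted p = 0.0136), and its 3 other probe sets had differences of 0.62, 0.36 and 0.44. On those probe sets the off differences were 0.13, -0.05 and -0.09, and the off arrays overlapped. Nudt19, a peroxisomal hydrolase of coenzyme A, was higher by 1.08 (adjusted p = 0.0368). Echdc1, a decarboxylase that removes a side product of fatty acid synthesis, was lower, with 105.4, 92.8 and 118.7 in Z on against 292, 201.4 and 246.1 in M on (-1.21, adjusted p = 0.00551). The Ctss call was lost without Z on replicate 1 or M on replicate 3 (highest adjusted p 0.0654), that of Chpt1 without Z on replicate 2 or M on replicate 2 or 3 (0.0755), and that of Nudt19 under 8 of 12 omissions.

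A last set of genes passed with the transgene on while the off arrays overlapped, with off differences between -0.07 and 0.26. The difference of the 2 differences, which tests whether the gap between the lines changed with the state, was called for none of them. Its adjusted p-values over the 7009 brighter probe sets were 0.165 for Cyp2c55, 0.196 for Saa3, 0.269 for Shmt1, Angptl8 and Tceal8, and 0.289 for Glrx2. In limma that test called 3 of the 7009 probe sets (0.0428%), 13 without Z on replicate 3, and 0 of all 22626, where 1172 (5.18%) had an unadjusted p under 0.05.

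Saa3, a serum amyloid A protein of the acute phase response, read 184.6, 129.9 and 176.7 in Z on and 34.6, 77.6 and 45.1 in M on. The groups were apart by 1.71 on the log2 scale (SE 0.26, adjusted p = 0.00938). The off means lay between the on means, with arrays at 90, 68.1 and 67.8 in Z off and 80.6, 73.7 and 64.2 in M off (difference 0.04). The M on array at 77.6 lay within the range of the off arrays. Unlike Saa1 and Saa2, the Saa3 signal of Z on replicate 3 lay within the range of the other Z on arrays, and without that array the adjusted p was 0.0366. The call was lost without Z on replicate 1 or M on replicate 3, with a highest adjusted p of 0.0628.

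Angptl8, a liver hormone that rises with feeding and insulin and restrains lipoprotein lipase, read 405.9, 284.9 and 408.8 in Z on and 1236.3, 1700.7 and 1228.9 in M on. All Z on arrays were lower (log2 -1.92, SE 0.33, adjusted p = 0.0218). The Z off and M off arrays read 217.9 to 585.4, so that the M on group stood above all 9 other arrays. The Angptl8 call was lost when any 1 of the 6 on arrays was left out, with a highest adjusted p of 0.0966. Cyp2c55, a cytochrome P450 inducible by foreign compounds, read 46.4, 66.7 and 62.7 in Z on and 424.1, 228.4 and 472.3 in M on (-2.63, SE 0.41, adjusted p = 0.0117). Z off arrays read 93.2, 287.7 and 85.1 and M off arrays 121.7, 79.5 and 138.2, so the off groups overlapped. That call was lost without Z on replicate 1, M on replicate 1 or M on replicate 3 (highest adjusted p 0.0654).

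Shmt1, the cytosolic enzyme that moves carbon units from serine to folate, read 389.2, 327 and 520.5 in Z on and 1406.4, 793.6 and 790 in M on. All Z on arrays were lower (-1.24, adjusted p = 0.0386), and the 3 other Shmt1 probe sets had differences of -0.42, -0.49 and 0.26. Their off differences were -0.29, -0.67 and 0.15, and the probe set at -0.67 was lower without overlap in both states. The overlap of the off arrays thus describes the passing probe set and not all those of Shmt1. Tceal8, of a family related to transcription elongation factors, was lower (-0.85, adjusted p = 0.0218). Glrx2, a mitochondrial glutaredoxin named here because it passed, was higher by 1.08 (adjusted p = 0.0412), with 0.45 and 0.66 on its other probe sets. Shmt1 was lost under 8 of 12 omissions, Glrx2 under 9 and Tceal8 under 4. Without Z on replicate 3 the adjusted p of Glrx2 was 0.137.

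The promoters of Asic5, Angptl8 and Saa3 are shown because these genes carry a difference in both states, a signal that was high in the M on group alone and an acute phase difference. Each sequence is the 250 bases before the annotated start in RefSeq (mouse GRCm38.p6), 5′ to 3′ on the strand of the gene. Capitals mark matches, on either strand, to the TATA box TATAAA in Asic5 (2 overlapping matches) and to the C/EBP motif TTGCNNAA in the others. The positions are chr3:81996672-81996921 on the plus strand for Asic5, chr9:21835260-21835509 on the plus strand for Angptl8 and chr7:46715677-46715926 on the minus strand for Saa3.
Asic5: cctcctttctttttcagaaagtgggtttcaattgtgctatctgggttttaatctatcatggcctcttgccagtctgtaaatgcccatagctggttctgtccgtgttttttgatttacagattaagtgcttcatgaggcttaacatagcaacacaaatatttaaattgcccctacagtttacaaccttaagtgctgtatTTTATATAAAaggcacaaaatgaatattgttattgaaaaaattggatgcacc
Angptl8: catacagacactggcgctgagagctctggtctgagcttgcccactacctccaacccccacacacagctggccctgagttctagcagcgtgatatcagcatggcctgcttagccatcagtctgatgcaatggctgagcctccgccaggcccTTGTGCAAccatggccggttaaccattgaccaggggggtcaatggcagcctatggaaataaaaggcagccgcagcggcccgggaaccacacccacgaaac
Saa3: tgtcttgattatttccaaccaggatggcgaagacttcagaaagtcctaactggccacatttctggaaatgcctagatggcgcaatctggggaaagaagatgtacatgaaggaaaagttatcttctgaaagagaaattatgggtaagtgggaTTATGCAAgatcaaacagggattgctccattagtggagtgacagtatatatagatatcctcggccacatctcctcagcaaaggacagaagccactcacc
Of 32851 promoters of the same length, 12.4% hold TATAAA and 9.56% hold TTGCNNAA on either strand.

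In the account of gene groups that follows, each gene is represented by its probe set with the highest mean over 12 arrays. Adjusted p-values are over all 22626 probe sets, where no list member passed. They are not on the same scale as those given above for the calls among the brighter probe sets. Across all 12393 genes, 6055 read higher in Z on and the median log2 difference was -0.01. On arrays that did not overlap, 6% of genes were higher and 6.49% lower, and at an unadjusted p under 0.05 the shares were 3.07% and 3.44%.

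The transcripts closest to the transgene and to its protein load did not pass between the 2 groups. Serpina1c, a mouse counterpart of human alpha1-antitrypsin, read 24722.3, 21591.2 and 19987.4 in Z on and 21554.9, 17739.5 and 19025.5 in M on (log2 difference 0.18, adjusted p = 0.888). Hspa5, which encodes the ER chaperone BiP, read 3763.9, 4315.6 and 5072.8 in Z on and 5090.3, 3708.8 and 4059.8 in M on (0.03, adjusted p = 0.989; -0.076 without Z on replicate 3). The groups overlapped for both genes. Of 23 ER chaperones and oxidoreductases, 9 read higher and the median was -0.01, which was -0.14 without Z on replicate 3 and 0.06 without Z on replicate 1. Canx, the lectin chaperone calnexin, was the 1 member with arrays apart, at 1323.3, 1361.9 and 1441.3 in Z on and 973.1, 1064.6 and 1188.4 in M on (0.36, adjusted p = 0.745). Creld2, a chaperone-like stress gene of the ER, differed by -0.83 (adjusted p = 0.619), with overlapping arrays.

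The sensors and effectors of the unfolded protein response had a median of 0.02 over 12 genes (-0.07 without M on replicate 1), with no member on arrays that did not overlap. Xbp1, its main transcription factor, differed by 0.06 (adjusted p = 0.975), and by -0.0038 without Z on replicate 3. Of 20 genes of ER-associated degradation, 9 read higher and the median was -0.03 (0.015 without Z on replicate 3). Ube2g2, a ubiquitin-conjugating enzyme of that pathway, read 157.9, 204.3 and 219 in Z on and 98.8, 141.7 and 122 in M on (0.68, adjusted p = 0.512). Those arrays did not overlap.

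Genes of the integrated stress response read lower in Z on more often than higher, with 19 of 22 members lower and a median of -0.29. The median was -0.15 without M on replicate 1, -0.18 without Z on replicate 1 and -0.46 without Z on replicate 2. On arrays apart, 3 were lower and none higher. Ddit3, which encodes CHOP, read 80.5, 107 and 70.3 in Z on and 92.4, 146.8 and 107.4 in M on (-0.42, adjusted p = 0.845), with overlap. Atf4 read 429.6, 633.6 and 610.7 in Z on and 860.8, 646.5 and 657.8 in M on (-0.38, adjusted p = 0.798), just without overlap. In Z off against M off the median of the list was -0.12. The members summed to 4825.5 to 5321.1 in M on, above the sums of all other arrays. Those were 3945.6 to 4339.7 in Z on, 4014.5 to 4566.6 in Z off and 4404.4 to 4485.5 in M off.

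Of 31 proteasome subunits, 24 read higher with a median of 0.10, and 6 were higher and 1 lower on arrays apart. With the transgene off, 18 of the 31 read higher with a median of 0.04, and 5 were higher and 1 lower on arrays apart. Psmd8, of the regulatory particle, read 855.7, 985.2 and 1055.2 in Z on and 638.5, 639.1 and 612.5 in M on (0.61, adjusted p = 0.528). Of 23 genes of autophagy and lysosome, 16 read higher with a median of 0.14, which was 0.09 without Z on replicate 2. Between the off groups 10 of the 23 read higher, with a median of -0.04. Map1lc3b, the autophagosome protein LC3, read 916.5, 1016.3 and 1131.6 in Z on and 467.7, 696.6 and 702.8 in M on (0.73, adjusted p = 0.572), and its arrays did not overlap. Ctsl, a lysosomal cathepsin, differed the other way at -0.60 (adjusted p = 0.623), and by -0.87 in the off state. Cytosolic heat shock genes had 13 of 17 members higher and a median of 0.21, against 0.28 in the off state. The median was 0.12 without M on replicate 1 and 0.13 without Z on replicate 3. Hsph1, a large heat shock protein, read 274.6, 254.6 and 285.2 in Z on and 174, 187.9 and 223.9 in M on (0.48, adjusted p = 0.664).

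**Figure D4:**
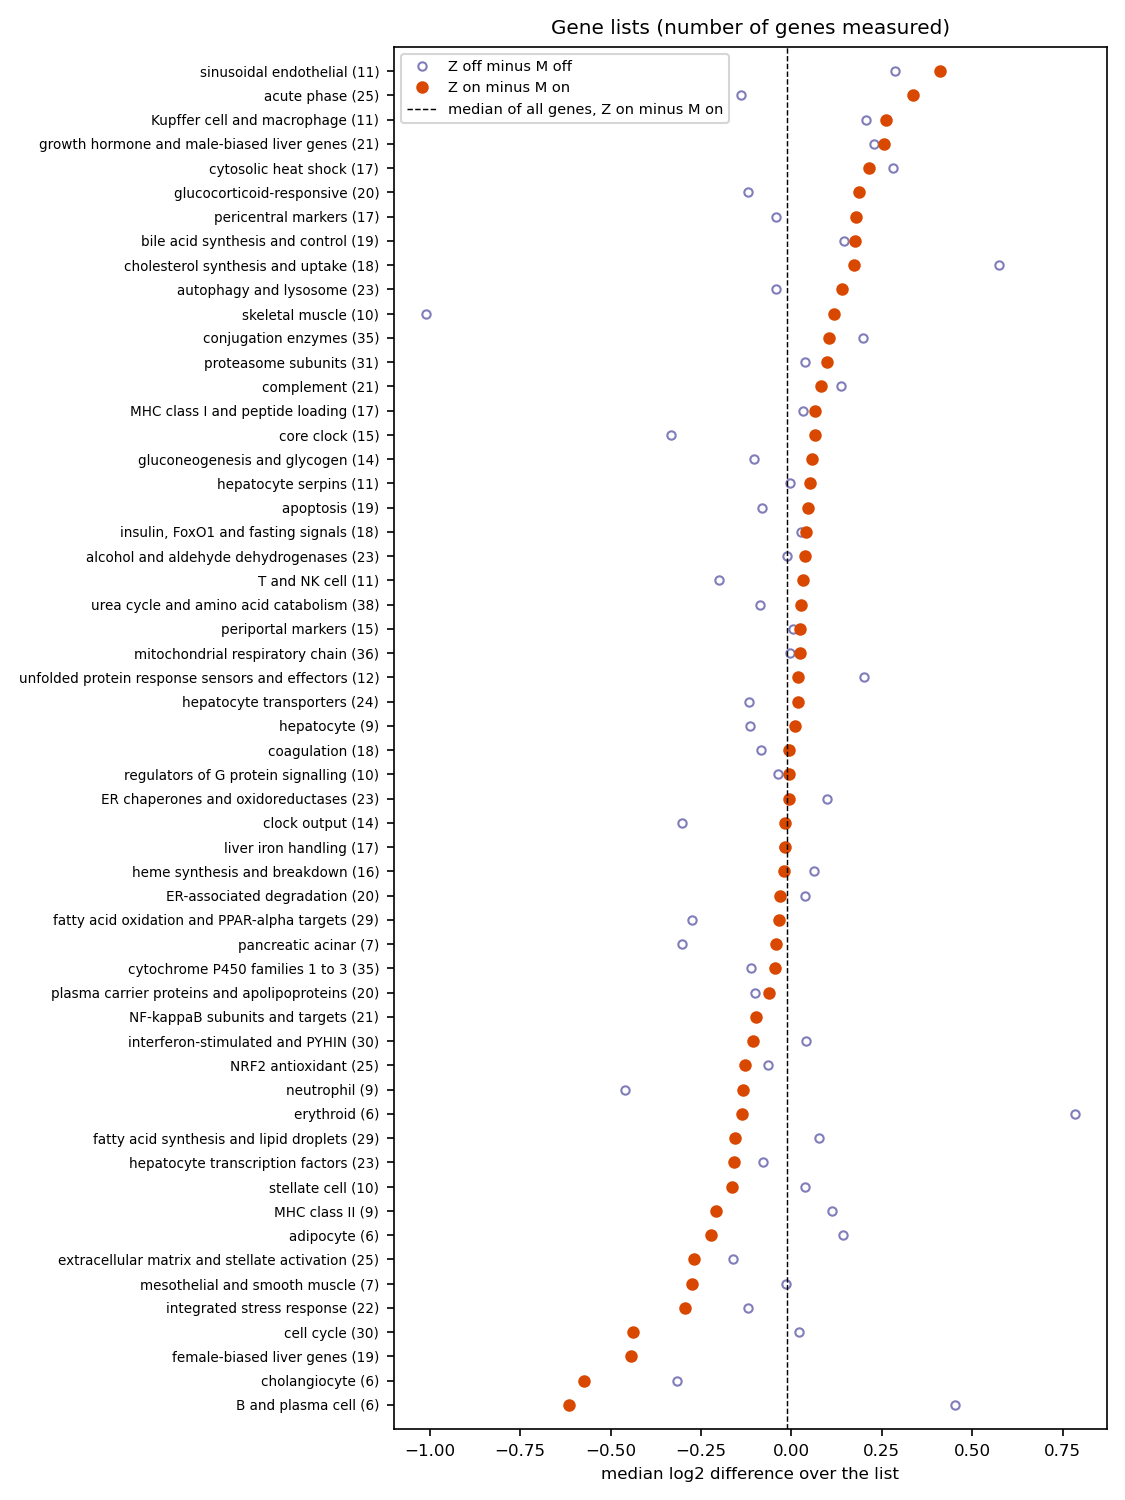
Median log2 difference of each gene list for Z on minus M on (filled) and Z off minus M off (open), with the number of genes measured in brackets; the dashed line is the median of all genes. Most medians lie within 0.25 of it. The sinusoidal endothelial list is highest at 0.41 and the B and plasma cell list, of 6 dim genes, lowest at -0.61 (-0.21 without Z on replicate 3).

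Of the liver's secreted defence proteins, acute phase genes had 17 of 25 members higher and a median of 0.34, and 5 were higher on arrays apart. Without Z on replicate 3, the array with high Saa1 and Saa2, the median was 0.01. The off median of the list was -0.14. Serpina3n, an acute phase serpin, read 745.7, 897.5 and 1470.6 in Z on and 486.2, 677.3 and 684 in M on (0.71, adjusted p = 0.747), and differed by 0.43 without that array. Cxcl1, a chemokine for neutrophils, read 378.6, 389.4 and 988.5 in Z on and 435.4, 598.5 and 314.3 in M on (0.28, adjusted p = 0.948), and -0.18 without Z on replicate 3. The neutrophil markers summed to 190 to 258.6 in Z on and 150.4 to 293.3 in M on, and none of the 9 reached a mean of 100 over the on arrays. Among 21 complement genes 14 read higher, with a median of 0.08 (0.02 without M on replicate 3). Between the off groups 16 of the 21 read higher, with a median of 0.14. C6 read 1410.2, 1319.7 and 1890.7 in Z on and 703.3, 950.6 and 633.9 in M on (1.02, adjusted p = 0.427). Hc, which encodes complement C5, read 2188.4, 2091.7 and 2473.1 in Z on and 1131.1, 1234.3 and 1243 in M on (0.90, adjusted p = 0.427). Both had no overlap, and their off differences were 0.55 and 1.51.

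NF-kappaB subunits and targets had 9 of 21 members higher and a median of -0.10, while the 6 bright members had 4 higher and a median of 0.20. The median of the 21 was -0.24 without M on replicate 1 and 0.04 without Z on replicate 2. Nfkbia, the inhibitor that NF-kappaB itself induces, read 1190.4, 1318.2 and 1094.3 in Z on and 780.5, 960.6 and 1081 in M on (0.36, adjusted p = 0.772), without overlap. Birc3, another target, differed by 0.67 (adjusted p = 0.695), and by -0.52 in the off state. Interferon-stimulated genes had 18 of 30 lower and a median of -0.11 (-0.04 without M on replicate 2). Usp18, a brake on interferon signalling, read 42.5, 44 and 41.3 in Z on and 77.2, 103 and 72.5 in M on (-0.97, adjusted p = 0.427). Ifit1 differed by -0.62 (adjusted p = 0.61), and the off differences were 0.01 for Usp18 and 0.03 for Ifit1.

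Of 29 genes of fatty acid synthesis and lipid droplets, 25 read lower in Z on, with a median of -0.16, and 6 were lower on arrays apart while none was higher. The median was -0.30 without Z on replicate 1. Fasn, fatty acid synthase, read 1545.7, 1525.4 and 1078.6 in Z on and 2333.8, 2492.9 and 1895.9 in M on (-0.71, adjusted p = 0.542). Elovl6, an elongase of its products, read 502.2, 453.3 and 313.6 in Z on and 939.1, 909.2 and 519.8 in M on (-0.88, adjusted p = 0.572). All Z on arrays were below all M on arrays for both. Pnpla3, a lipid droplet enzyme induced by sterol regulatory element binding protein, differed by -1.62 (adjusted p = 0.61) at a dim level. G0s2, an inhibitor of triglyceride breakdown, read 387.1, 416.9 and 565.5 in Z on and 1680.3, 680.6 and 697.9 in M on (-1.04, adjusted p = 0.701). In the off state the list median was 0.08, with Fasn at 0.51, Elovl6 at -0.09 and G0s2 at 0.79. The members summed to 31964.4 to 46278.4 in Z on and 39539.6 to 56388.6 in M on. The sums were 35628.3 to 39860.7 in Z off and 32986.8 to 33885.7 in M off. The sources used here do not state the feeding at collection.

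**Figure D5:**
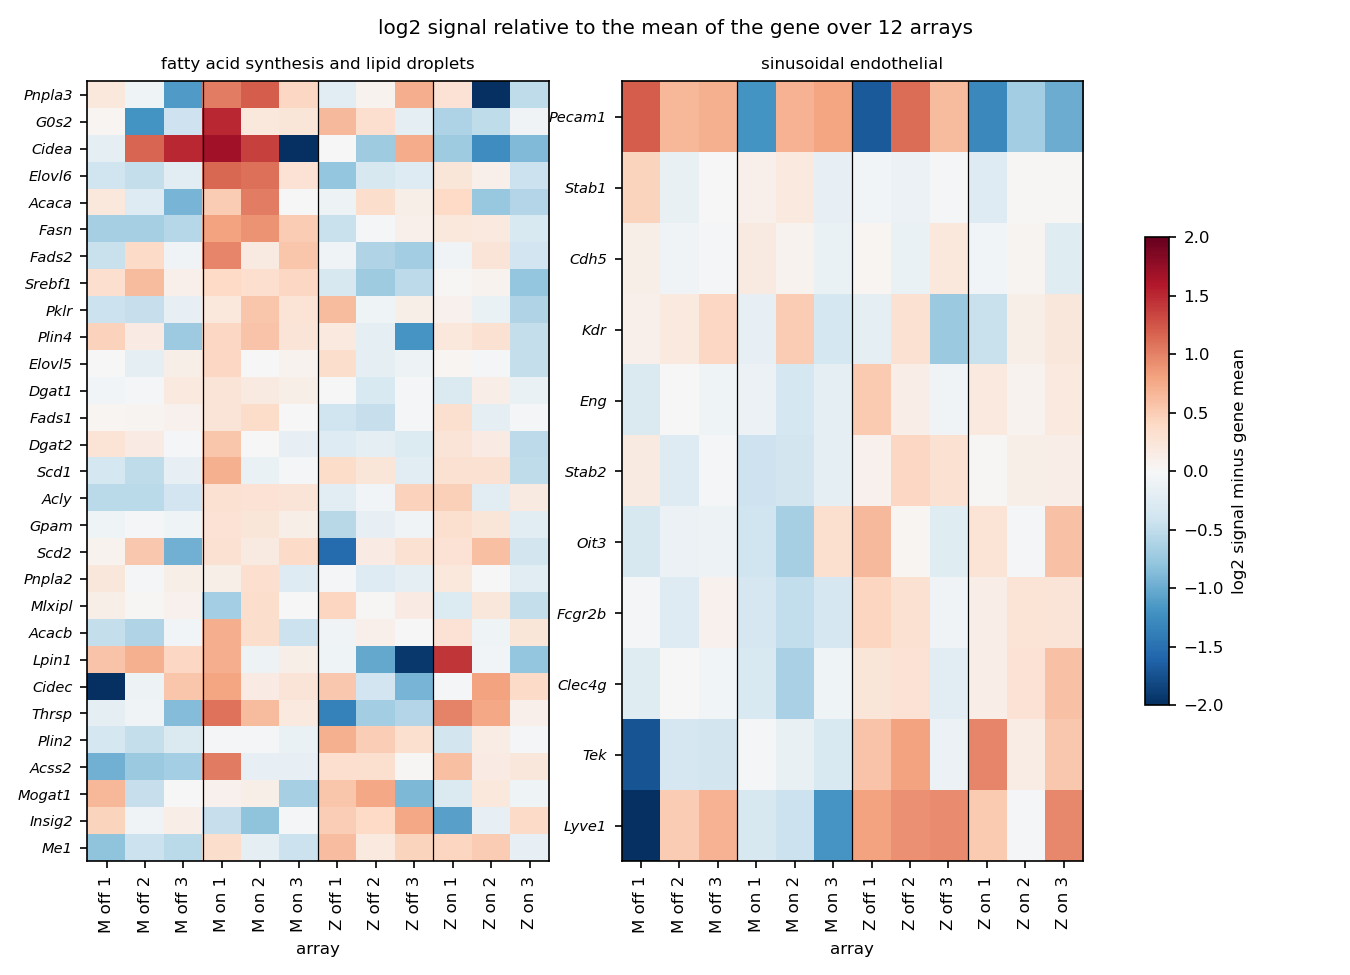
Log2 signal of each gene minus its mean over the 12 arrays, by array, for fatty acid synthesis and lipid droplets (left, 29 genes) and sinusoidal endothelial markers (right, 11 genes); red is above and blue below the gene's mean, and colours stop at 2 either way. For Fasn and Elovl6 the Z on arrays lie below the M on arrays, and Fcgr2b, Clec4g and Stab2 show the reverse.

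Cholesterol synthesis genes read higher in 13 of 18 cases with a median of 0.17, against 0.57 in the off state. The median was 0.04 without Z on replicate 3 and 0.29 without Z on replicate 2. Idi1, an isomerase of that pathway, read 1022.9, 743 and 1244.8 in Z on and 731.7, 646.9 and 643.5 in M on (0.55, adjusted p = 0.71). It was the 1 member on arrays apart. Of the fatty acid oxidation genes, 14 of 29 were higher. Beside Acaa2, the fatty acid transporter Cd36 read 252.4, 281.3 and 235.5 in Z on and 431.6, 745.5 and 463 in M on (-1.05, adjusted p = 0.542), and -1.48 in the off state. Pdk4, a fasting-induced kinase that holds back pyruvate oxidation, read 35.3, 42 and 155.3 in Z on and 16.1, 22.2 and 23.4 in M on (1.59, adjusted p = 0.544), and differed by 0.92 without Z on replicate 3. Igfbp1, a binding protein that insulin represses, read 81.1, 161.6 and 193.6 in Z on and 54.3, 17.3 and 42.8 in M on (1.99, adjusted p = 0.512), without overlap, and -0.36 in the off state. Gckr, the regulator of glucokinase, differed by -0.68 (adjusted p = 0.483).

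Bile acid genes had 13 of 19 members higher and a median of 0.18 (0.08 without M on replicate 3). Between the off groups 14 of the 19 read higher, with a median of 0.15. Beside Cyp7b1, the sterol hydroxylase Cyp27a1 read 2740.3, 2471.1 and 2564.9 in Z on and 2005.8, 1709.3 and 1663.9 in M on (0.54, adjusted p = 0.512), and 0.60 in the off state. Cyp39a1, a hydroxylase of oxysterols, differed by 1.05 at a dim level (adjusted p = 0.577). All 3 had arrays apart.

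Sex-biased liver genes, which follow the pattern of growth hormone, had medians of opposite sign. Of 21 growth hormone and male-biased genes, 15 read higher in Z on with a median of 0.26, and 6 were higher and 1 lower on arrays apart. Without Z on replicate 1 the median was 0.11 and without Z on replicate 3 it was 0.43. Elovl3, an elongase, read 643.4, 1141.6 and 2241.5 in Z on and 565, 373.5 and 535.1 in M on (1.29, adjusted p = 0.591), and differed by 0.83 without Z on replicate 3. Bcl6, a repressor of female-biased genes in male liver, read 274, 315.9 and 113.3 in Z on and 72.6, 106.9 and 102 in M on (1.21, adjusted p = 0.61), and -1.18 in the off state. Cish, a target of STAT5, differed by -1.23 (adjusted p = 0.701). Of 19 female-biased genes, 13 read lower with a median of -0.44, and 5 of the 19 were bright. The median was -0.24 without Z on replicate 2 and -0.65 without M on replicate 2. Fmo1, a flavin monooxygenase, read 835.6, 752.2 and 708.7 in Z on and 1097.7, 1366.1 and 1120.1 in M on (-0.64, adjusted p = 0.482). Hamp2, a hepcidin gene, read 4338.9, 4287.2 and 1750.9 in Z on and 9976.8, 8580.9 and 4016.6 in M on (-1.13, adjusted p = 0.64), with overlap, and differed by -0.70 without Z on replicate 3. All mice were male, and the off medians of the 2 lists were 0.23 and -0.44.

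Cry2, a clock repressor, read 96.4, 125.2 and 89 in Z on and 41.8, 21.9 and 58 in M on (1.45, adjusted p = 0.544), and -1.25 in the off state. Bhlhe40, another repressor, read 466.8, 503.6 and 163.4 in Z on and 704.2, 727.9 and 759.9 in M on (-1.11, adjusted p = 0.654). Without Z on replicate 3, Bhlhe40 differed by -0.59. Nfil3 differed by 1.57 (adjusted p = 0.427), and by 1.14 without that array. Dbp differed by -1.29 (adjusted p = 0.863), and by 0.08 without it. For Bhlhe40, Nfil3 and Dbp the Z on replicate 3 signal lay nearer to the Z off mean (171, 278 and 60.7) than to the other Z on arrays. The core clock list had 8 of 15 higher and a median of 0.07, which was -0.09 without Z on replicate 2 and 0.21 without M on replicate 1. Its 5 bright members were all lower, with a median of -0.12. The sources used here do not state the collection time.

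Markers of sinusoidal endothelial cells were the cell type list with the highest median, 0.41, with 7 of 11 higher and 6 higher on arrays apart. Their summed signal was 1391.8 to 1608.7 in Z on and 1060.1 to 1150.8 in M on, against 1252 to 1570.4 in Z off and 1229.1 to 1315.4 in M off. Fcgr2b, an Fc receptor of these cells, read 274.9, 302.6 and 299.9 in Z on and 198.5, 177.1 and 198.7 in M on (0.61, adjusted p = 0.512). Clec4g, a lectin, read 363.4, 408.3 and 498 in Z on and 269.2, 212 and 313.2 in M on (0.68, adjusted p = 0.577). Stab2, the scavenger receptor stabilin, differed by 0.41 (adjusted p = 0.713). Stab1 differed by -0.12 and the dim Pecam1 by -1.09, with overlapping arrays. Whether the calls above move with these markers was not tested.

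Matrix and stellate activation genes had 17 of 25 members lower and a median of -0.27. Between the off groups 19 of the 25 read lower, with a median of -0.16. Col3a1, a fibrillar collagen, read 235.9, 226.9 and 244.6 in Z on and 411.6, 415.4 and 734.4 in M on (-1.09, adjusted p = 0.496), without overlap, and the off difference was -0.32. Ccn2, a matrix protein induced by TGF-beta, read 72.1, 49.1 and 53.7 in Z on and 20.3, 22.8 and 27.9 in M on (1.29, adjusted p = 0.336). Stellate cell markers summed to 1505.9 to 1943.5 in Z on and 1613.2 to 2163.8 in M on, which overlapped. Cell cycle genes had 23 of 30 members lower and a median of -0.44, but only 5 were bright and their median was 0.17. The median of the 30 was -0.27 without M on replicate 3. Ccnd1, cyclin D1, read 199.5, 188.7 and 112.7 in Z on and 196.9, 330.2 and 324.6 in M on (-0.77, adjusted p = 0.735), with overlap, and differed by -0.51 without Z on replicate 3. Markers of T and NK cells, B and plasma cells, cholangiocytes, skeletal muscle, mesothelium and neutrophils had no member with a mean of 100 over the 6 on arrays.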

How the data were processed

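Total RNA of mouse livers carried a biotin label on Affymetrix arrays of 1 colour, per the labels' protocols. The authors deposited intensities: a linear signal for each probe set on each array. The submitters' processing notes name RMA, whereas the values are not on a log2 scale and have the same trimmed mean but different medians on each array. The sources used here do not name the software.

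Signals were converted to log2, with 1 value of 0 set to 0.1, and no filter or further normalization. In limma (version 3.58.1, R 4.3.3; lmFit and eBayes, 2-sided) the 4 group means were estimated from all 12 arrays together, and Z on minus M on, Z off minus M off and their difference were taken. The Benjamini-Hochberg adjustment ran over 22626 probe sets, with calls at an adjusted p under 0.05. The fit of only the 7009 probe sets with a mean of at least 100 on the 6 on arrays was an alternative, reported beside it. The script was tested on simulated data of 22626 probe sets, of which 200 bright ones were changed in Z on. At a log2 change of 1, 33 of 100 passed, and at a change of 2, 95 of 100 passed. There were 11 false calls. A probe set that did not pass can therefore still differ.

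Gene names came from the platform annotation, looked up in RefSeq (GRCm38.p6). Of the tested probe sets, 20380 had 1 symbol, 691 several and 1555 none. Of 1187 entries in 56 lists, 1033 were measured. No probe set carries the name of the human transgene, which was not analysed here.

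Named genes were the called ones and, up to 10 in each direction, bright genes with arrays apart and the smallest p, then up to 4 members of each list by p, the genes called in Z off minus M off, and a fixed set of serpin, stress and other genes. Saa1, Saa2, Lcn2, Plbd1, Glrx2, Stbd1, Cish, Pecam1, Stab1 and the unnamed probe sets of the brighter fit fell outside this rule and were chosen after their values were seen. The arrays, lists and genes were chosen with earlier results of these data known. Alternatives were quantile normalization, median centring, adding 16 or 50 before log2, a variance trend with robust variances, the level limit, only the 2 groups, a replicate block, a fold limit and omission of each array. Omission of the off arrays was added after the data were seen. P-values of the reported fit set each difference against the spread between arrays of the same group. That spread was pooled over the 4 groups and adjusted by eBayes with the other fitted probe sets. Promoter sequences are from RefSeq, GRCm38.p6.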

Additional observations from a re-analysis of the deposited data

Results flagged for a closer look

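Of the 64 control probe sets, which entered no test, those for the ends of 18S ribosomal RNA read higher in Z on than in M on. The 18S control of the 3' end averaged 1296.5 in Z on and 442 in M on, against 209 in Z off and 621 in M off. The 18S control of the 5' end averaged 448 in Z on and 111 in M on, against 38.7 in Z off and 179 in M off. On both, the Z on arrays did not overlap with the M on arrays, while on the control of the middle they did (185 to 458.7 and 51.1 to 330), and the part of this signal in other differences was not tested.

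The gap between the Z and M lines changed with the state of the transgene for 3 of the 7009 brighter probe sets in limma. That count was 13 without Z on replicate 3, and 1 without Z on replicate 1 or 2, M on replicate 3, Z off replicate 3 or M off replicate 2. For Alas2, the erythroid enzyme of heme synthesis, the difference of the differences was -2.73 (SE 0.24, adjusted p = 0.000348). Alas2 read 1456.1, 1259.1 and 1118.8 in Z off, and between 136.5 and 306.6 on the 9 other arrays, so the Z off group was the one apart. The Z off arrays were also lowest on average for the 3 18S controls and for spiked-in controls, such as DapX-3 with a mean of 464 against 1083 to 1273 in the other groups, and the part of this in the Alas2 difference was not tested. The erythroid markers summed to 1411.3 to 1762.9 in Z off, 421.6 to 473.4 in Z on, 503.9 to 541.6 in M on and 507.4 to 554.3 in M off. Alas2 is part of that sum and most of it in Z off, so the sum is no separate measure of erythroid cells. For Stbd1, a glycogen-binding protein named because it passed, the difference of the differences was 1.42 (SE 0.20, adjusted p = 0.0294). Stbd1 averaged 468 in Z on, 374 in M on, 290 in Z off and 622 in M off. For a probe set without a single gene symbol it was -2.54 (SE 0.38, adjusted p = 0.0338), with means of 80.9 in Z on, 164 in M on, 98.8 in Z off and 37.0 in M off. None of the 3 passed in Z on against M on, and over all 22626 probe sets their adjusted p-values were 0.0624, 0.23 and 0.247.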

How the results depend on the processing

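The count of calls over all probe sets, 2, moved with the setting. It was 9 with quantile normalization (6 higher; of the 9, 4 bright and 4 also called in the off state), 10 after adding 16 (5 higher, 5 lower, 9 bright, 8 also off) and 19 after adding 50 (11 higher, 8 lower, 18 bright, 9 also off). It was 22 with a variance trend and robust variances (13 higher, 9 lower, 20 bright, 9 also off) and 25 with only brighter probe sets (15 higher, 10 lower, 10 also off). With median centring 1 was higher. The cause was not tested. The level limit leaves fewer probe sets to adjust over, and its fit also estimates the spread anew. The SE of Asic5 was 0.18 in that fit and 0.21 in the fit of all probe sets. The parts of these changes in the count were not separated. With only the groups of the contrast in the fit, and so fewer arrays, 0 passed. Over single omissions, the count of calls ranged from 0 (without M on replicate 1) to 5 (without Z on replicate 2), of higher calls from 0 to 2, of lower calls from 0 to 4, of bright calls from 0 to 2, of calls also made in the off state from 0 to 2, and of calls in the difference of differences from 0 to 1.

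The replicate numbers did not pair the arrays: deviations of same-numbered Z on and M on arrays correlated at -0.07, -0.13 and 0.12. With a replicate block 0 probe sets passed over all probe sets, and 32 among the brighter ones, 22 of them among the 25.

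The sign of small differences turned in some settings, and the cause was not tested. Alb, which encodes albumin, was at 0.01 in the reported fit and at -0.0052 with median centring. Over single omissions Alb ranged from -0.15 to 0.26, Serpina1b from -0.24 to 0.165, Hspa5 from -0.076 to 0.17, Xbp1 from -0.074 to 0.17 and Cxcl1 from -0.18 to 0.51. The MHC class II median, -0.21, was 0.24 without Z on replicate 3. Dim signals limit the rest: 28.4% of values lay under 16.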

Other observations

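The 22 genes that passed among the brighter probe sets were placed in the order of protein-coding genes in RefSeq, and some shared a chromosome. Mccc1 and Anxa5, both lower in Z on, have 4 such genes between them on chromosome 3. Nudt19 and Uri1, both higher, have 8 between them on chromosome 7, where Rps9 and Isoc2b, both higher, have 36 between them. Nudt2 and Aldh1b1, both lower, have 90 between them on chromosome 4. Cyp7b1, higher, and Mccc1, lower, have 63 between them on chromosome 3. The other pairs that follow each other among the 22 genes on a chromosome have 171 to 683 between them. Chromosomes 3 and 7 each held 5 of the 22 genes and hold 5.17% and 7% of the genes with bright probe sets. No test was made of these positions.

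Further genes of the lists or of the off calls did not pass in Z on against M on. For all but Mndal, the Z on and M on arrays did not overlap. Osgin1, which responds to oxidative stress, read 314.1, 491.1 and 505.2 in Z on and 720.8, 935.6 and 831.3 in M on (log2 difference -0.95, adjusted p = 0.545), and differed by 1.06 in the off state. Aadat, an aminotransferase of lysine and kynurenine, read 1178.6, 1103.1 and 833.7 in Z on and 612.8, 653.3 and 622.9 in M on (0.71, adjusted p = 0.486). Cyp3a13, a cytochrome P450 called lower between the off groups in the Z line, read 262.9, 415.8 and 398.7 in Z on and 664.3, 624 and 604.6 in M on (-0.84, adjusted p = 0.445), against -1.77 in the off state. Dusp1, a phosphatase of stress kinases, read 250.4, 165.2 and 255 in Z on and 671.9, 495.2 and 620.9 in M on (-1.43, adjusted p = 0.71). Sdhd, a subunit of succinate dehydrogenase, read 923.5, 892.4 and 938.6 in Z on and 719.5, 526.5 and 596 in M on (0.59, adjusted p = 0.61). Mndal, an interferon-inducible gene, read 44.8, 23.1 and 99.8 in Z on and 72.8, 78.5 and 81.4 in M on (-0.72, adjusted p = 0.858; -1.27 without Z on replicate 3). In the off state it read 3.1, 1 and 1.9 in Z off, at the dim end of the scale, and 82.9, 76.3 and 84.6 in M off, so the size of that gap is not given.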
